A study of Mus musculus with 120 samples.

Results

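Genic piRNA loci were described here in the small RNAs of mouse testis, epididymis and sperm. piRNAs are small RNAs bound by the PIWI group of Argonaute proteins in germ cells, where they silence transposons and cleave target transcripts. They are cut from long single-stranded precursors, most of which in the adult testis come from intergenic loci that the transcription factor A-MYB switches on when spermatocytes enter pachytene. Genic loci are another class, in which the precursor shares its span with an annotated gene. Members were the rows of the piRNA class in the deposited tables whose name is "pi-" followed by a gene name, with pi-Ankrd11 set aside and 1 row, the one with the highest total, kept per locus. This gave 113 loci out of 214 piRNA loci in all. The other 100 are named by chromosome band and are called intergenic here.

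The 113 loci were read in 114 libraries of RNA under 40 nt, in 36 groups, from mice aged 8 to 12 weeks on a control diet. PNK is polynucleotide kinase, which adds 5' phosphates and removes 3' phosphates, and PNK3minus ("PNK 3 minus" as labelled) is a form without the phosphatase activity. Tissue came from cauda epididymis and testis, each untreated or treated with PNK, PNK3minus, AlkB (a demethylase) or RppH (a pyrophosphohydrolase that trims 5' triphosphates). Each of these 10 groups holds 4 libraries, which are 2 numbered tissues prepared with an acid and a base chemistry. Sperm libraries came from the caput and cauda ends of the epididymis with PNK (3 and 3) and without (3 and 3). Cauda sperm titled FVB, a mouse strain, were washed with low, mid or high detergent or left unwashed (5 each). In the titles, set 1 of the 5 (1 library per wash) is marked FVBTA and the others FVBCDIET. Low was 0.01% SDS with 0.005% Triton-X, mid 0.1% with 0.005%, and high 0.1% with 0.5%. Heads, tails and whole sperm were taken from the cauda (3, 4 and 6) and the testis (3, 2 and 2). Of the cauda ones, 2 heads, 3 tails and 4 whole had a hypotonic wash and the rest a detergent wash. All the testis ones had the detergent wash, 0.01% SDS with 0.005% Triton-X. A maturation series held primary spermatocytes, early and late round spermatids and caput sperm (1 library each), testicular sperm (4), cauda sperm (7) and cauda epididymosomes (3), the vesicles that epididymal epithelium releases. Testicular sperm were also fused with caput epididymosomes (2) or mock fused (2). The 4 testicular sperm libraries carry different marks in their titles (2X, NaCl, fusion untreated and somatic). The labels do not say which libraries came from separate animals, so p-values measure the spread between these libraries, which may be technical.

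The host genes have many roles. The 113 hosts were sorted into 33 of chromatin and transcription, 18 of membrane and cytoskeleton, 14 of signalling, 12 of ubiquitin and protein turnover, 11 of RNA binding and translation, 6 with a predicted or clone name and 19 others. In the GENCODE vM21 annotation of mm10, 111 of the 113 host names were found, 110 as protein-coding genes and 1, Gm5878, as a long intergenic RNA. The listed length was 746 nt at the shortest, 35970 nt at the median and 599129 nt at the longest, and in 89 of the 111 it was within 10% of the whole gene's span, introns included. How reads inside that span were assigned is not given in the sources used here, so piRNAs and fragments of the host's own mRNA cannot be told apart in these counts.

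Promoters of 84 hosts were in the RefSeq table of GRCm38.p6, as 250 bases before to 50 after the start given there for the gene. The letters CAACNG, the core of the MYB motif, were present on either strand in 34 of the 84 (40.5%), beside 9493 of all 27025 promoters of the same length (35.1%). 4 of them are printed, for the pair of loci with the largest falls and the pair with the smallest falls in cauda epididymis against testis, with the CAACNG match (here as CAGTTG, its other strand) in capitals. The first is on the + strand at chr10:127676815-127677114, the second on the + strand at chr7:30121682-30121981, the third on the - strand at chr4:56947380-56947679 and the fourth on the + strand at chr16:24393100-24393399. All are written 5' to 3' on the gene's strand.
pi-Tmem194 (Nemp1): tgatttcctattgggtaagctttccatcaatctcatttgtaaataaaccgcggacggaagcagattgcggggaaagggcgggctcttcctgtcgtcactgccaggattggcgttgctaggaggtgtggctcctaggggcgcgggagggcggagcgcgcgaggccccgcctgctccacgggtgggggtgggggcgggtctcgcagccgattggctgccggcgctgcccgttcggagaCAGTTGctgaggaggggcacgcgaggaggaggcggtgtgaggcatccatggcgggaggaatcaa
pi-Zfp382: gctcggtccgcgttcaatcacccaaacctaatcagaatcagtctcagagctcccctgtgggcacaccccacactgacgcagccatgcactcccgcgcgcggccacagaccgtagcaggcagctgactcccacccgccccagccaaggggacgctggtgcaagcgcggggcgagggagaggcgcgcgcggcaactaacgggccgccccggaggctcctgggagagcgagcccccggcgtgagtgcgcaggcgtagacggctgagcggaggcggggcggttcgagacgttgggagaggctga
pi-D730040F13Rik (Tmem245): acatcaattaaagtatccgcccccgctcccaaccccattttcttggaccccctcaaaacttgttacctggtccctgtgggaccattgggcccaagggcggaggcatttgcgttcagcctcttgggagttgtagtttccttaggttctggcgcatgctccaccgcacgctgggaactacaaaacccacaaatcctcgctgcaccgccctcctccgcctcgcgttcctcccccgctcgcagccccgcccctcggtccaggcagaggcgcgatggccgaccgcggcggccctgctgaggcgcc
pi-Lpp: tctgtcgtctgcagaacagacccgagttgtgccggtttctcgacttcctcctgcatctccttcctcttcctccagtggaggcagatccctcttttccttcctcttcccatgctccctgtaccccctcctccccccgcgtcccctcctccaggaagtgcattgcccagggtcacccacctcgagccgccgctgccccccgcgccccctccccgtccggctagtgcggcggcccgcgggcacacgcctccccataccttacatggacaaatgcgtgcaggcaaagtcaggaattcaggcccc
Only the pi-Tmem194 window among these 4 held a match. That window lies well inside the GENCODE span of Nemp1 (chr10:127666901-127701049, + strand), not at its start. The GC content was 64.0%, 69.7%, 63.3% and 64.7% in that order, close to the median of 65.2% over the 84 hosts, beside 52.7% over all promoters.

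Depth ran between 156347 and 56011124 reads per library, and the genic loci held between 674 and 1259149 reads. All 113 loci had reads in 88 libraries, and at least 97 in each of the others. Levels are given as CPM, the read count as a share of the library's total, so they are shares of everything sequenced; fitted log2 fold changes use edgeR's TMM scaling and can differ from the ratio of mean CPM. Some libraries stood apart. Testis RppH replicate 3 had 484914 reads and 8.68% piRNA reads (1 row per locus), beside 62.0% to 72.5% in the other RppH replicates, and its epithelial microRNAs (the miR-200 family) summed to 8034 CPM, beside a median of 114 over the group. Testicular sperm replicate 1 had 22.5% piRNA reads, beside 32.7% to 69.4% in the others, and its markers of caput epithelium summed to 102.1 CPM, beside a group median of 2.85. Testis PNK replicate 4 held 228043 reads, and testis PNK3minus replicate 3 had 34.0% piRNA reads, beside 63.2% to 64.9%. In tissue, the germ cell microRNAs Mir34b, Mir34c and Mir449a all fell in cauda epididymis and the 5 miR-200 family members all rose, which fits the tissue labels.

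Genic loci took a small share of piRNA reads in the testis and a large one in the epididymis. Of all reads assigned to piRNA loci, they held 13.1% to 19.9% in the 4 untreated cauda epididymis libraries, against 3.99% to 4.10% in the 4 untreated testis libraries, with no overlap. In the germ cell stages the share was 3.65% in primary spermatocytes, 3.85% in early and 3.84% in late round spermatids, and 4.00% to 7.75% in testicular sperm. Cauda sperm of the maturation series held 10.4% to 19.9%, and cauda epididymosomes 40.9% to 44.3%. The share differed between parts of one cell: 10.02% to 15.1% in cauda sperm heads, against 5.53% to 6.44% in cauda sperm tails. It was also high after PNK in sperm, at 47.8% to 56.7% in caput sperm, against 18.2% to 22.4% without PNK. Cauda sperm had 27.98% to 31.9% with PNK, against 10.6% to 12.3% without. In testis, PNK libraries had 4.05% to 4.27%, which overlaps the untreated range. PNK3minus libraries of cauda epididymis had 42.6% to 60.6%, the last the highest of any library, where piRNAs were 2.39% to 7.47% of reads. Over all 114 libraries the median share was 12.3%.

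**Figure D1:**
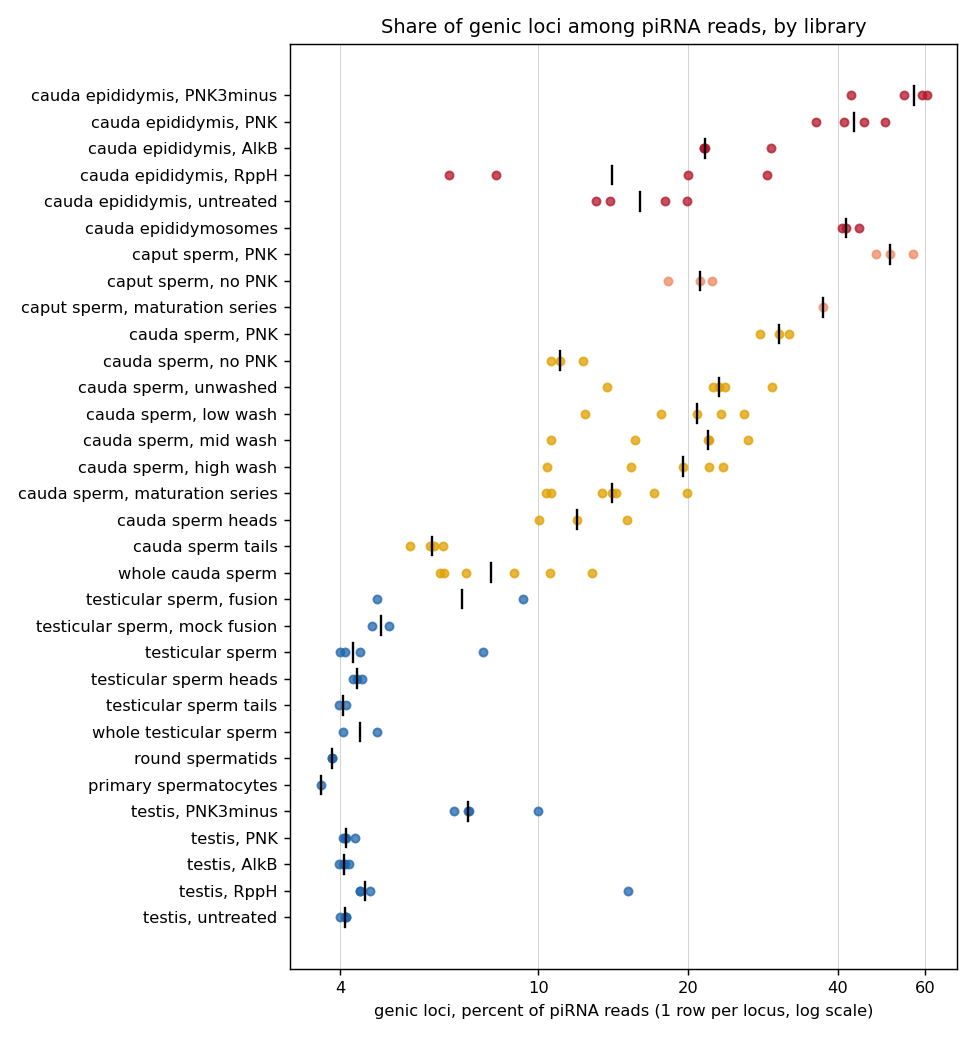
Genic loci as a percent of all piRNA reads (1 row per locus, log scale), 1 point per library, with the median of each group as a black line; red is cauda epididymis and its vesicles, salmon caput sperm, yellow cauda sperm and blue testis and testicular cells. Untreated testis libraries sit between 3.99% and 4.10%, untreated cauda epididymis libraries between 13.1% and 19.9%, and 1 testis RppH library lies apart at 15.2%.

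The 8 genic loci with the highest mean level over the tables were led by pi-Gm5878, with a mean over tables of 1492 CPM. Its host, Gm5878, is a long intergenic RNA at chr6:85111416-85126125 on the - strand. Next came pi-Cbl (984 CPM), whose host encodes a ubiquitin ligase of receptor signalling and lies at chr9:44142976-44234049 on the - strand, and pi-Tmem194 (565 CPM), whose host, now named Nemp1, encodes a nuclear envelope protein and lies at chr10:127666901-127701049 on the + strand. pi-D10Wsu102e had 501 CPM and pi-Zfp382, in the gene of a zinc finger protein, 384 CPM. pi-Eif2c2 had 327 CPM in the gene of Argonaute 2, pi-Wdfy3 325 CPM in the gene of an autophagy protein, and pi-Lpp 281 CPM in the gene of a focal adhesion protein at chr16:24393507-24992578 on the + strand. These are per-library levels that do not account for length. The mean of pi-Cbl includes its high levels in the PNK3minus testis libraries, given below. In untreated testis pi-Cbl ranked 3rd with 6.99% of genic reads, after pi-Tmem194 with 10.99%. Per kb of listed length, pi-Gm5878 was first at 101.6 CPM per kb, while pi-Lpp, the longest of the 113, was 104th at 0.469 CPM per kb.

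pi-Gm5878 had its highest levels in the testis and sperm of the testis. It averaged 4946 CPM in untreated testis, 4413 CPM in spermatocytes, 5151 and 5209 CPM in early and late round spermatids, and 1954 to 4552 CPM in testicular sperm. Cauda sperm of the maturation series had 79.0 CPM at the lowest, 198 at the median and 262 at the highest, the single caput sperm library 54.9 CPM, cauda epididymosomes 28.9 to 32.4 CPM and untreated cauda epididymis 42.8 to 93.3 CPM. Cauda sperm tails, given below, overlapped testicular sperm. In tails pi-Gm5878 held 22.9% of genic reads after the hypotonic wash and 23.7% after detergent. The spermatocyte, spermatid and testis levels lie within 4413 and 5209 CPM and, with 1 library per stage, have no order beyond spread. Over the means of 36 groups, the loci most like it were pi-Tmem194 (Spearman 0.98), pi-1700006A11Rik (0.98) and pi-Zfp382 (0.97), as a description over groups that share libraries' depth and scaling.

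pi-Lpp followed another order. It averaged 98.3 CPM in spermatocytes, 80.5 and 78.7 CPM in early and late round spermatids, and had 99.7 to 356 CPM in testicular sperm, where the 356 CPM belongs to replicate 1. Cauda sperm had 30.9, 76.5 and 115 CPM (lowest, median and highest), caput sperm without PNK 208 to 614 CPM, and cauda epididymosomes 134 to 147 CPM. Its share of genic reads was 9.17% in untreated cauda epididymis, where it ranked first, against 0.549% in untreated testis, where it ranked 30th. pi-Gm5878 held 5.72% of genic reads in untreated cauda epididymis, against 20.8% in untreated testis.

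**Figure D2:**
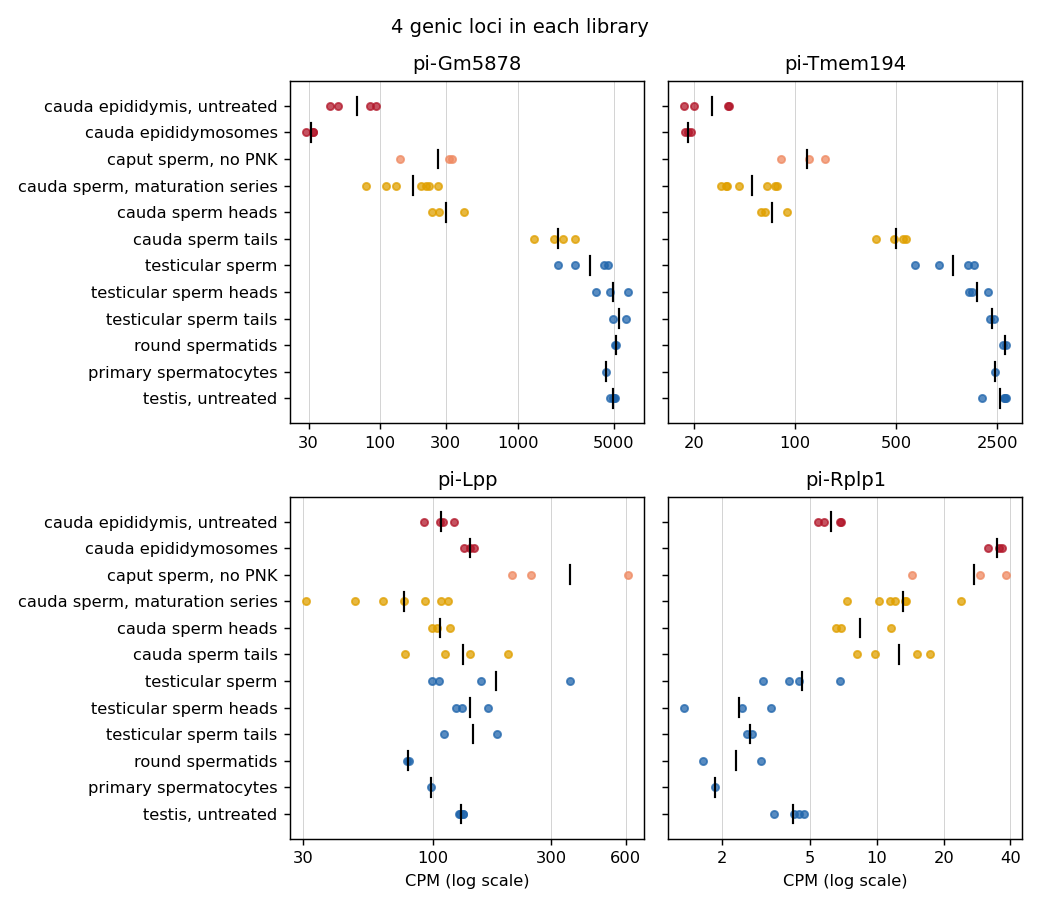
Levels of 4 genic loci in CPM (log scale), 1 point per library, with the group mean as a black line, in untreated tissue, epididymosomes, caput and cauda sperm, sperm parts and germ cell stages. pi-Gm5878 and pi-Tmem194 are high in all testis-derived groups and low in epididymis and epididymosomes, pi-Lpp spans 30.9 to 614 CPM, and pi-Rplp1 is at 1.35 to 38.4 CPM with epididymosomes and caput sperm at its upper end.

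Across the 113 loci, level followed listed length closely in epididymal material and little in the testis. The Spearman correlation between listed length and mean CPM was 0.64 in untreated cauda epididymis and 0.21 in untreated testis, as a description over loci that share libraries. It was 0.16 in spermatocytes, 0.14 in both round spermatid libraries, 0.40 in testicular sperm, 0.72 in cauda sperm and 0.77 in cauda epididymosomes. Cauda sperm heads after the hypotonic wash had 0.67, against 0.43 for tails. With PNK it was 0.88 in caput sperm, against 0.78 without, and in PNK3minus cauda epididymis it was 0.86. The spread of levels per kb changed alike: the 90th percentile was 7.11 times the 10th in untreated cauda epididymis, against 54.7 times in untreated testis, and 3.78 times in epididymosomes.

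**Figure D3:**
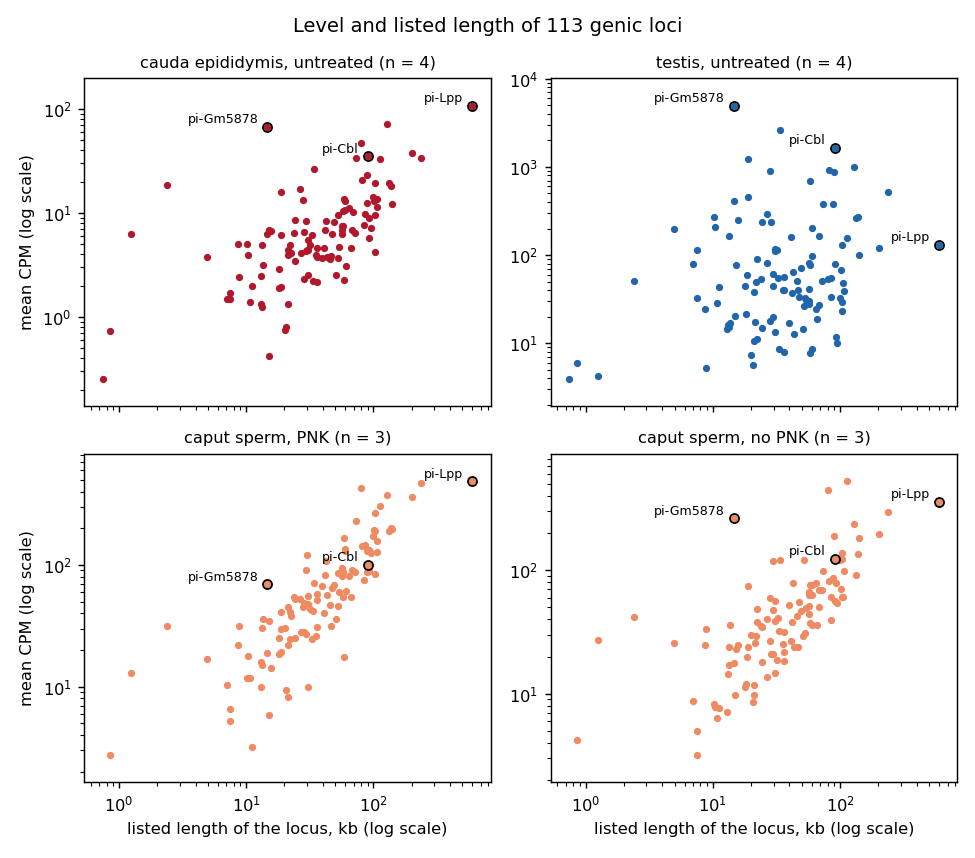
Mean CPM of each genic locus against its listed length in kb (both log scales) in untreated cauda epididymis, untreated testis, and caput sperm with and without PNK, with pi-Gm5878, pi-Cbl and pi-Lpp named; pi-Hist1h1a, at 0 in both caput groups, is not drawn there. Points line up with length in the caput PNK panel (Spearman 0.88) and scatter in the testis panel (0.21).

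Against testis, cauda epididymis had less of nearly every genic locus. Of 113 tested, 112 fell and none rose, with a median log2 fold change of -3.47; of all rows tested, 50.2% fell and 45.6% rose (quasi-likelihood test of edgeR, adjusted after Benjamini and Hochberg, threshold 0.05). pi-Tmem194 fell by 6.92 ± 0.35 on the log2 scale (SE; adjusted p = 7.63e-12), with 20.1, 34.6, 35.1 and 17.2 CPM in cauda epididymis, against 2880, 1945, 2794 and 2808 CPM in testis. pi-Gm5878 fell by 6.50 ± 0.34, with 49.0, 93.3, 83.7 and 42.8 CPM in cauda epididymis, against 5091, 4995, 4965 and 4734 CPM in testis. In both, every epididymis library lay far below every testis library. pi-Zfp382 fell by 6.61, pi-Asb1, whose host encodes a substrate receptor of ubiquitin ligases, by 6.55 and pi-Cbl by 5.87. At the other end, pi-Lpp fell by 0.57 and pi-D730040F13Rik, in the gene of the transmembrane protein Tmem245 at chr4:56866923-56947437 on the - strand, by 0.45. pi-Rplp1, in the gene of an acidic ribosomal protein, was the 1 locus not called (named after its values were seen), at 5.43 to 6.88 CPM in cauda epididymis, against 3.41 to 4.66 CPM in testis. In bulk tissue, fewer germ cells and less RNA per cell cannot be told apart.

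By host role, all 33 loci of chromatin and transcription fell (median -3.41), as did all 14 of signalling (-3.02), all 12 of ubiquitin and protein turnover (-3.63) and all 18 of membrane and cytoskeleton (-2.78). Of the 11 of RNA binding and translation 10 fell (-4.32), and all 6 with predicted or clone names fell (-5.96). Split by listed length, the 29 shortest loci (746 to 18886 nt) had a median log2 fold change of -4.69, and the next 3 groups of 28 loci each, from short to long, had -3.59, -2.86 and -3.11. Intergenic loci, side by side, had a median of -6.73 with 99 of 100 lower.

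Counted only against piRNA reads, most rows of any kind were higher in cauda epididymis, genic loci among them. With the library size set to the piRNA total, 103 of 113 genic loci rose and none fell, with a median of 3.16. Of all rows 83.5% rose, with a median of 6.95. piRNAs (1 row per locus) were 0.556% to 0.967% of reads in cauda epididymis, against 85.6% to 87.3% in testis. pi-D730040F13Rik rose by 6.19 ± 0.28 (adjusted p = 3.57e-07), pi-Lpp by 6.08, pi-Ndst1 (a heparan sulfate sulfotransferase gene) by 5.18 and pi-Snx30 (a sorting nexin gene) by 5.11. pi-Cbl rose by 0.70 (adjusted p = 0.00118). The log2 fold changes of pi-Gm5878, 0.04 ± 0.14 (adjusted p = 0.807), and pi-Tmem194, -0.36 ± 0.16 (0.0622), did not pass the test. Intergenic loci had a median of -0.17, with 24 higher and 12 lower of 100.

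Cauda sperm of the maturation series had less of most genic loci than testicular sperm. Of 113 tested, 70 fell and 3 rose, with a median of -1.43; of all rows, 71.6% were called, 29.5% lower and 42.1% higher. pi-Tmem194 fell by 4.08 ± 0.38 (adjusted p = 2.22e-11), with 30.8, 40.8 and 75.2 CPM in 7 cauda sperm libraries (lowest, median and highest), against 670, 1567, 992 and 1720 CPM in testicular sperm, and the groups did not overlap. pi-1700006A11Rik fell by 3.87, pi-Tbl2 by 3.86, pi-BC026590 by 3.84, pi-Gm5878 by 3.69 and pi-Cbl by 3.63. The 3 that rose were pi-Rplp1 (2.19, named after its values were seen), pi-Foxo3 (1.02 ± 0.42, adjusted p = 0.0293), in the gene of a forkhead transcription factor, and pi-D730040F13Rik (0.83, adjusted p = 0.0389). pi-Rplp1 had 7.34, 12.1 and 23.99 CPM in cauda sperm, against 3.04 to 6.82 CPM in testicular sperm, without overlap. pi-Foxo3 rests on the scaling: its CPM of 9.20, 18.9 and 39.0 in cauda sperm overlapped the 60.5, 7.53, 8.72 and 11.5 CPM of testicular sperm, and its log2 fold change was -0.03 on library totals alone. The rises of pi-Foxo3 and pi-D730040F13Rik also missed the threshold by DESeq2 and with most single libraries left out, at 0.44 to 0.80 and 0.44 to 0.71.

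By host role, with no test between roles, the loci that fell were as follows. Of the loci of RNA binding and translation 8 of 11 fell, of chromatin and transcription 23 of 33, of ubiquitin and protein turnover 9 of 12, of membrane and cytoskeleton 8 of 18, of signalling 6 of 14, of predicted or clone names 5 of 6 and of the others 11 of 19. Counted within piRNA reads, 89 of 112 rose and none fell, with a median of 2.16. Of all rows 92.5% rose, with a median of 4.70. Among genic loci averaging at least 20 CPM, the largest rises were pi-D730040F13Rik at 4.35, pi-Rab11fip4 at 3.91 and pi-Foxo3 at 3.83. pi-Gm5878 (0.09, adjusted p = 0.823) did not pass the test. Intergenic loci fell in 99 of 100 in the first fit, with a median of -3.99.

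Other germ cell transcripts moved beside these loci, not all one way. Of 24 genes of the piRNA pathway, 14 were tested and 13 fell in cauda sperm (median -3.27), among them Piwil1 and Piwil2, which encode the PIWI proteins MIWI and MILI, by 2.92 and 3.65; the list summed to 2.40 to 9.63 CPM in cauda sperm, against 38.0 to 91.0 CPM in testicular sperm. At such low sums in cauda sperm, pathway genes could pass the low-count filter mainly through testicular sperm, which favours falls among those tested. The count of falls therefore does not describe the whole list. Host mRNA rows fell for 16 of the 18 hosts tested and rose for 2. The same filter limits this count, and these rows may share reads with the loci, so they are not a separate measure. Of 10 spermatid markers 9 rose and none fell, and the 3 germ cell microRNAs and 4 of 4 spermatocyte markers tested fell. Of 4 cauda epithelium markers 3 rose, summing to 34.3 to 499 CPM in cauda sperm, against 0.259 to 17.3 CPM in testicular sperm. The part of these in the result was not tested.

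The sperm parts table, which shares no library with the maturation series, held the same contrast. Whole cauda sperm had 53 genic loci lower and 2 higher (pi-Rplp1 at 1.68, named after its values were seen, and pi-Foxo3 at 1.51) of 113 than whole testicular sperm, with a median of -0.92, where 45.7% of all rows were called, 27.4% lower and 18.3% higher. pi-Tmem194 fell by 3.42 ± 0.44 (adjusted p = 6.34e-06), with 256, 232, 182 and 104 CPM after the hypotonic wash and 245 and 159 CPM after detergent in cauda sperm, against 1776 and 2197 CPM in testicular sperm. pi-Foxo3 had 10.1 to 65.3 CPM in cauda sperm, against 8.58 and 20.3 CPM in testicular sperm, which overlap, and it missed the threshold without either testicular library (1.70 and 1.24) or without cauda detergent replicate 1 (1.29). Of the loci that fell, 52 were shared with the maturation series, 98.1% of the 53 here and 74.3% of the 70 there, and over 113 loci the log2 fold changes of the 2 comparisons had a Spearman correlation of 0.91. The count was 31 lower and 0 higher without whole testicular sperm replicate 3, which leaves 1 testicular library, assumed to vary like the other groups.

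**Figure D4:**
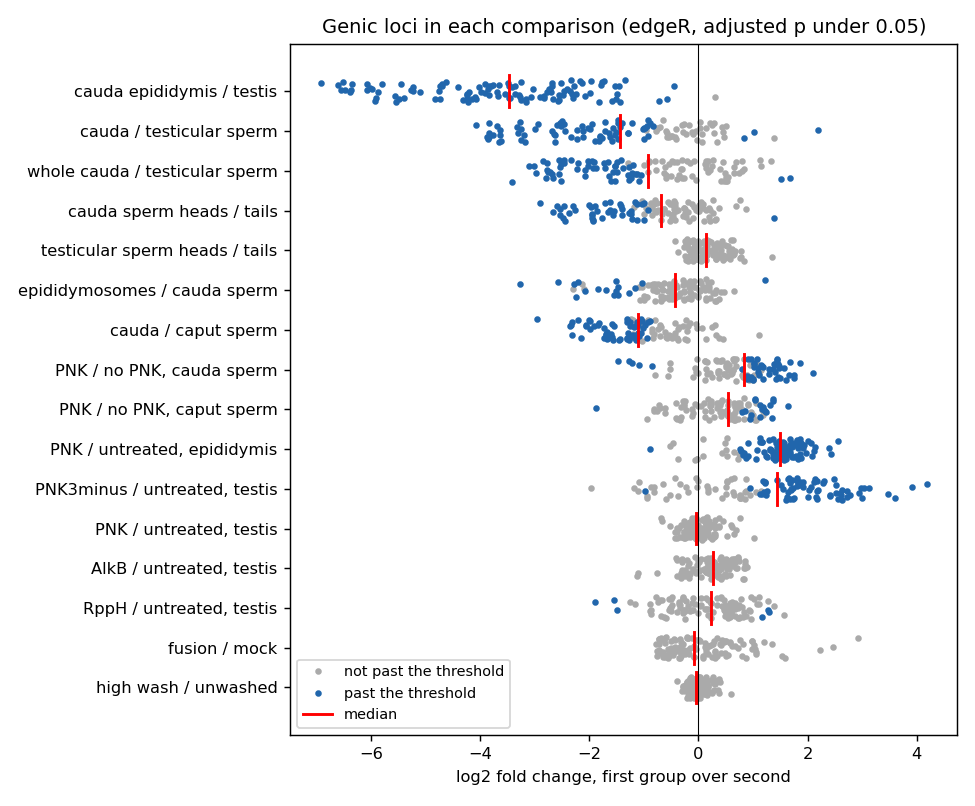
Log2 fold change of each tested genic locus in 16 comparisons, first group over second (edgeR), with blue points past an adjusted p of 0.05, grey points not, and the median in red. The cauda epididymis against testis row lies left of 0 except for 1 grey point, PNK3minus against untreated testis and the PNK rows for sperm and epididymis lie mostly to the right, and the PNK row for testis and the high wash row centre on 0.

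In cauda sperm, 42 of 113 genic loci fell in heads against tails, 1 rose and 70 were not called, with a median of -0.68, equal to the median of -0.68 over all rows, of which 24.1% fell and 12.4% rose. With RLE scaling, which moved all rows by 0.53, 23 fell and 3 rose. pi-Cdc42ep3, in the gene of a CDC42 effector, fell by 2.90 ± 0.43 (adjusted p = 9.81e-06), with 4.63, 3.60 and 3.68 CPM in heads, against 38.2, 27.8, 24.3 and 45.8 CPM in tails. pi-Tmem194 fell by 2.66, pi-Tbl2 by 2.59 and pi-Gm5878 by 2.53, the last with 404, 267 and 239 CPM in heads, against 2131, 1322, 1846 and 2622 CPM in tails. pi-D730040F13Rik went the other way, rising by 1.38 ± 0.38 (adjusted p = 0.00516), with 221, 215 and 186 CPM in heads, against 139, 55.8, 71.3 and 116 CPM in tails. Counted within piRNA reads, 79 rose and none fell (median 1.53), where 44% of all rows rose, with a median of 1.72. Of piRNA pathway genes 10 of 21 tested fell and none rose in heads, and of 25 host mRNA rows 19 fell and 2 rose.

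In testicular sperm no genic locus passed the test between heads and tails (unadjusted p under 0.05 for 1 higher and 0 lower; DESeq2 called 1 higher), and 0% of all rows did. pi-Gm5878 had 3749, 4688 and 6397 CPM in heads, against 4917 and 6112 CPM in tails, which overlap. The head to tail difference itself was lower in cauda than in testicular sperm for 23 of 113 loci and higher for none (median -0.94), where 11% of all rows were lower and 6.52% higher. It was -2.66 ± 0.62 for pi-Cdc42ep3 (adjusted p = 0.00634), -2.55 for pi-Tbl2, -2.48 for pi-Gm5878 and -2.43 for pi-Tmem194. This count was 4 with RLE scaling, 4 with 1 row per piRNA locus and 13 with no filter. It was 0 without testicular tail replicate 1 and 6 without replicate 2, fits that leave 1 testicular tail library, assumed to vary like the other groups. It was 13 without cauda head replicate 2 of the hypotonic wash, and 15 without testicular head replicate 2 or 3, hypotonic cauda tail replicate 3 or the detergent cauda tail.

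Cauda epididymosomes had fewer reads of pi-Gm5878 than cauda sperm and more of the ferritin locus pi-Fth1. The epididymosome titles share a date code that no cauda sperm title of this series carries, so group and date code cannot be told apart. Of 113, 16 fell and 1 rose, with a median of -0.43, where 25.7% of all rows fell and 9.91% rose. pi-Gm5878 fell by 3.27 ± 0.51 (adjusted p = 1.91e-06), with 28.9, 32.1 and 32.4 CPM in epididymosomes, against 79.0, 198 and 262 CPM (lowest, median and highest) in cauda sperm. pi-Zfp382 fell by 2.57, pi-Tmem194 by 2.24, pi-1700006A11Rik by 2.20 and pi-Phf20, in the gene of a chromatin reader, by 1.68. pi-Fth1, in the gene of ferritin heavy chain at chr19:9980598-9985098 on the + strand, rose by 1.21 ± 0.38 (adjusted p = 0.011), with 61.8, 60.4 and 59.0 CPM in epididymosomes, against 5.74 to 36.7 CPM in cauda sperm. pi-Lpp, the leading genic locus of epididymosomes at 5.69% of genic reads, had a log2 fold change of 0.13 (adjusted p = 0.806). On library totals alone 4 rose and 6 fell, with a median of 0.32, and all rows shifted by 0.66. Markers of cauda epithelium summed to 380 to 410 CPM in epididymosomes, against 34.3 to 499 CPM in cauda sperm, and 10 of 10 spermatid markers fell.

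Cauda sperm had fewer reads of genic loci than caput sperm, both without PNK. Of 106 tested, 60 fell and none rose, with a median of -1.11, where 51.4% of all rows were called, 33.8% lower and 17.6% higher; 7 of the 113 did not pass the filter on low counts. pi-Zbtb49, in a zinc finger gene, fell by 2.96 ± 0.59 (adjusted p = 0.000201), with 1.18, 1.86 and 3.20 CPM in cauda sperm, against 10.2, 51.2 and 28.8 CPM in caput sperm. pi-D730040F13Rik fell by 2.34, with 41.8, 53.1 and 69.1 CPM in cauda sperm, against 650, 339 and 346 CPM in caput sperm. pi-Mafg, in the gene of a small MAF transcription factor, fell by 2.36, pi-Ip6k1, in an inositol phosphate kinase gene, by 2.31 and pi-Phf20 by 1.67. pi-Gm5878 had a log2 fold change of 0.30 (adjusted p = 0.468), with 139 to 248 CPM in cauda sperm, against 140 to 333 CPM in caput sperm. Within piRNA reads 55 of 92 tested fell and none rose (median -1.01, all rows 25% lower), and intergenic loci fell for 4 of 96 in the first fit. All 4 caput epithelium markers tested fell, from a list of 5 that summed to 0 to 0.395 CPM in cauda sperm, against 230 to 426 CPM in caput sperm; their part in the result was not tested. The count was 23 lower and 1 higher without caput replicate 2, which held 156347 reads, and 30 lower by DESeq2. With no filter on low counts it was 1 lower and 1 higher, and within piRNA reads 24 lower.

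PNK raised most genic loci in cauda epididymis. There 93 of 111 tested rose and 1 fell, with a median of 1.499, where 43.4% of all rows rose and 24.7% fell. pi-Zfp346, in the gene of a double-stranded RNA binding protein, rose by 2.44 ± 0.44 (adjusted p = 0.000167), with 44.6, 66.2, 41.4 and 51.7 CPM after PNK, against 8.49, 7.65, 7.76 and 9.73 CPM untreated. pi-Rcan3, in a calcineurin regulator gene, rose by 2.39, pi-Rnf169, in a ubiquitin ligase gene, by 2.08 and pi-Wipf2, in an actin regulator gene, by 2.00. The 1 that fell was pi-Gm5878 (-0.89, adjusted p = 0.0137), with 33.2 to 41.6 CPM after PNK, against 42.8 to 93.3 CPM untreated; it missed the threshold (-0.75 to -0.70) without PNK replicate 1, 3 or 4 or untreated replicate 2 or 3. All 14 loci of signalling rose, 29 of 32 of chromatin and transcription, 15 of 18 of membrane and cytoskeleton, 10 of 11 of RNA binding and translation and 9 of 12 of ubiquitin and protein turnover, against 1 higher and 1 lower of the 6 with predicted or clone names. With the tissue number and chemistry as a replicate block, which pairs these libraries, 74 rose and 3 fell.

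In cauda sperm 43 of 106 tested (40.6%) rose after PNK and 5 fell, with a median of 0.84, where 61.2% of all rows were called, 32.5% higher and 28.7% lower, so the share that rose was near that of all rows. pi-Zfp346 rose by 2.09 ± 0.36 (adjusted p = 3.05e-05), with 33.1, 58.1 and 25.9 CPM with PNK, against 13.4, 11.6 and 11.5 CPM without. pi-Fth1 rose by 1.75, pi-Luzp1, in the gene of an actin-associated protein, by 1.69 and pi-Bcl2l13, in a mitophagy receptor gene, by 1.57. pi-Gm5878 fell by 1.47, with 33.8, 53.6 and 51.0 CPM with PNK, against 139, 185 and 248 CPM without, pi-Zfp382 by 1.28 and pi-Tmem194 by 0.85, the last not past the threshold (-0.74 to -0.62) without PNK replicate 1 or 2 or without untreated replicate 2 or 3. The others that fell were pi-Pou6f1 and pi-Tbl2 (named after their values were seen). Of the 43 that rose, 41 (95.3%) also rose after PNK in cauda epididymis, where they are 44.1% of the 93, beside 83.8% of all 111 tested there that rose. The log2 fold changes of the 2 comparisons, which share no library, had a Spearman correlation of 0.67 over 106 loci. Intergenic loci had 3 higher and 59 lower of 96. All 4 cauda epithelium markers rose too, summing to 415 to 756 CPM with PNK, against 67.9 to 111 CPM without, and their part in the result was not tested. On library totals alone 7 rose and 7 fell, and with no filter on low counts 0 rose and 5 fell.

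Caput sperm had 18 genic loci (16.98%) higher and 1 lower after PNK of 106 tested, with a median of 0.54, where 39.7% of all rows were called, 12.5% higher and 27.1% lower, again a share of rises near that of all rows. pi-Gabpb2, in the gene of an ETS family partner, rose by 1.64 ± 0.46 (adjusted p = 0.00533), with 66.6, 60.9 and 44.9 CPM with PNK, against 10.2, 25.6 and 19.6 CPM without. pi-Kcng3, in a potassium channel gene, rose by 1.37, pi-Rad54l2, in a helicase gene, by 1.36 and pi-Socs7, in a gene of cytokine signalling, by 1.35. pi-Gm5878 fell by 1.87, with 50.8 to 86.5 CPM with PNK, against 140 to 333 CPM without. Of 4 caput epithelium markers tested 3 rose, the list of 5 summing to 779 to 1028 CPM with PNK, against 230 to 426 CPM without. The count of rises was 49 with RLE scaling, which moved all rows by 0.47, and 0 with no filter. It was 9 without the untreated replicate 1, where pi-Gabpb2 (1.22) missed the threshold, and 11 without PNK replicate 1. pi-Socs7 (1.00) missed it without the untreated replicate 3.

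In testis PNK changed no genic locus past the threshold (0 of 113 also by DESeq2; unadjusted p under 0.05 for 0), where 10.9% of all rows rose and 0.272% fell. PNK3minus did: 66 of 113 rose and 1 fell, with a median of 1.44, where 23.3% of all rows rose and 18% fell. pi-Cbl rose by 4.19 ± 0.64 (adjusted p = 2.6e-05), with 19822, 9600, 17127 and 18882 CPM after PNK3minus, against 1635, 1693, 1656 and 1648 CPM untreated. That was 49.8% of all genic reads in the PNK3minus group, against 6.99% in untreated testis. pi-Tet3, in the gene of a 5-methylcytosine dioxygenase at chr6:83362373-83459084 on the - strand, rose by 3.91, with 58.9 to 155 CPM after PNK3minus, against 10.98 to 13.4 CPM untreated. pi-Rab11fip4, in a gene of endosome traffic, rose by 3.60 and pi-Foxo3 by 3.48. pi-Fth1 fell by 0.97, with 12.3 to 15.3 CPM after PNK3minus, against 49.9 to 53.9 CPM untreated. pi-Gm5878, at 1386 to 2939 CPM after PNK3minus, against 4734 to 5091 CPM untreated, did not pass the test (-0.20, adjusted p = 0.828). These folds depend on scaling: on library totals alone all rows shifted by -0.90, and 41 genic loci rose and 22 fell. Without PNK3minus replicate 3 the median was 0.89, with 52 higher and 3 lower.

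AlkB changed no genic locus in testis past the threshold (2 higher and 2 lower at unadjusted p under 0.05, with 1 higher and 2 lower called by DESeq2), where 3.35% of all rows rose and 7.8% fell. The testis enzyme fit took its spread from all testis tissue libraries together, PNK3minus and RppH replicate 3 included. A locus not called in that fit was not shown to be unchanged. pi-Tmem194 had 1136, 991, 1152 and 1011 CPM after AlkB, against 2880, 1945, 2794 and 2808 CPM untreated; the groups did not overlap, and the log2 fold change of -1.12 ± 0.49 had an adjusted p of 0.187. After RppH 3 rose and 3 fell of 113, where 11.2% of all rows rose and 7.52% fell. pi-Tmem194 fell by 1.90 ± 0.51 (adjusted p = 0.0142), with 770, 225, 788 and 704 CPM after RppH, against the same untreated libraries; replicate 3 is the 225 CPM. pi-Ipmk, in an inositol phosphate kinase gene, fell by 1.55. The log2 fold change of pi-Kctd7, in a potassium channel domain gene, was -1.495. pi-Ppp1r12b, in a myosin phosphatase subunit gene, rose by 1.29, pi-Rab11fip4 by 1.28 and pi-Tef, in a clock-related transcription factor gene, by 1.17. Without replicate 3, the library that stood apart, 43 rose and 8 fell. Without untreated replicate 1, 3 or 4 the calls were 3, 3 and 2, and pi-Tef, pi-Ppp1r12b, pi-Rab11fip4 and pi-Kctd7 each missed the threshold in 1 or more of these fits. RLE scaling gave 19 and 4, library totals alone 17 and 11, and DESeq2 36 and 8.

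**Figure D5:**
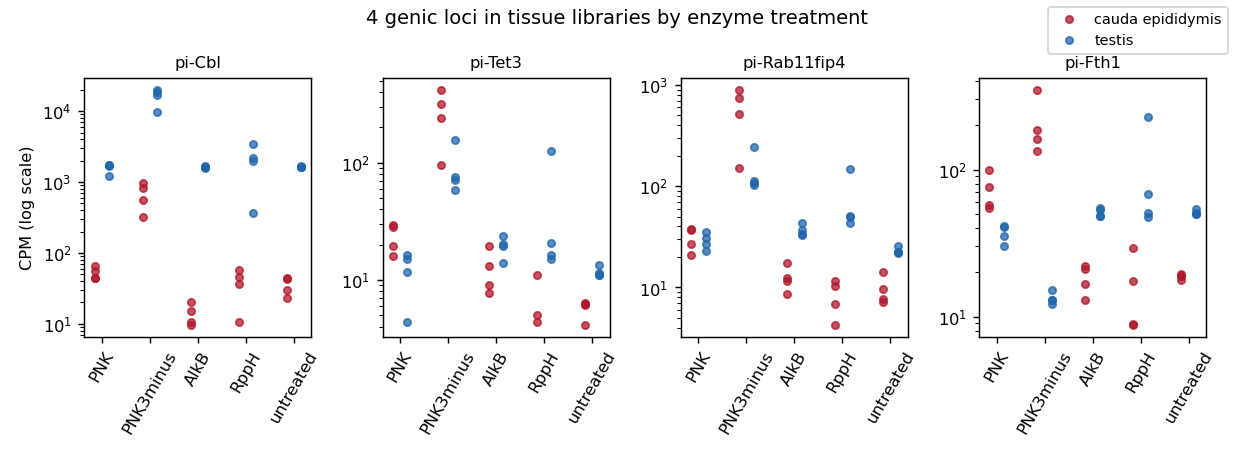
Levels in CPM (log scale) of pi-Cbl, pi-Tet3, pi-Rab11fip4 and pi-Fth1 in cauda epididymis (red) and testis (blue) by enzyme, 1 point per library. pi-Cbl reaches 9600 to 19822 CPM in PNK3minus testis libraries and 325 to 971 CPM in PNK3minus epididymis libraries, and among testis libraries pi-Fth1 is lowest after PNK3minus.

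Without a block, no genic locus of cauda sperm passed the test between washed and unwashed libraries. Low, mid and high washes against unwashed sperm each called 0 of 112 (0 at unadjusted p under 0.05, 0 by DESeq2), with medians of 0.06, -0.01 and -0.05, where 0.0713% of all rows were called with the low wash, all lower. The mid wash called 2.79% of all rows (0.697% higher, 2.09% lower) and the high wash 1.58% (0.119% higher, 1.46% lower). With the set number as a replicate block, which pairs these libraries, the calls were 0, then 1 lower, then 2 higher. All 5 washed libraries lay above all 5 unwashed ones for 21 genic loci after the mid wash, beside 6.76% of all rows, and for 16 after the high wash, beside 2.81%. After the low wash there were 0 (0.23% of all rows), and no locus had all washed libraries below in any wash (1.22%, 1.65% and 1.31% of all rows for low, mid and high). pi-Gm5878 had 445, 538, 419, 691 and 1225 CPM after the high wash, against 216, 312, 277, 336 and 634 CPM unwashed, each set higher washed than unwashed, with overlapping groups. pi-Lpp had 433 to 551 CPM after the high wash, against 396 to 521 CPM unwashed. These CPM, and the counts of loci without overlap, carry no TMM scaling. On library totals alone the median of all rows shifted by 0.44 for the mid wash and 0.43 for the high wash. Across 112 loci the log2 fold change fell with listed length (Spearman -0.36, -0.35 and -0.48 for low, mid and high), as a description.

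Cauda sperm at 12 weeks and at 9 weeks (3 libraries each) had 0 of 112 genic loci called (1 higher and 0 lower at unadjusted p under 0.05, 0 by DESeq2), where 0% of all rows were called. Fusion of testicular sperm with caput epididymosomes called 0 of 113 against mock fusion (1 higher at unadjusted p under 0.05, 0 by DESeq2), where 6.91% of all rows rose and 0.0342% fell. pi-Gm5878 had 1141 and 1926 CPM after fusion, against 2266 and 2419 CPM after mock fusion, which do not overlap. Both fusion libraries lay below both mock libraries for 39 genic loci, beside 19.5% of all rows, and above them for 3, beside 34.2% of all rows. All 4 caput epithelium markers tested rose in fused sperm, the list of 5 summing to 141 and 203 CPM, against 2.80 and 9.47 CPM in mock fused sperm. Without fusion replicate 2, which leaves 1 fusion library, assumed to vary like the mock group, 12 loci rose and 0 fell. With the date code in the titles as a replicate block, which pairs these libraries, 0 rose and 4 fell.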

How the data were processed

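Small RNA libraries of mouse testis, epididymis and sperm were deposited by the authors as 7 tables of whole-number read counts per small RNA feature, with expected counts (estimated counts, not always whole) for the mRNA rows, per the file headers and values. The submitters' processing notes name the build mm10; the aligner and the counting rule are not given in the sources used here. The 4-TU set (6 of 120 samples, its controls included) was not used.

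From these counts, library totals left out 28S, 18S and 5.8S rows, which are nested in the 45S row; 27 gene rows whose names had become dates were dropped; expected counts were rounded. Repeat rows of a piRNA locus stay in totals: 82 of the 113 loci have more than 1 row, and the second holds 83.5% of the kept row at the median. CPM is a share of that total. Tests were edgeR 4.0.16 quasi-likelihood fits (limma 3.58.1, R 4.3.3) with TMM scaling, filterByExpr and Benjamini-Hochberg adjustment over all rows, threshold 0.05, and terms for wash or chemistry where the labels give one. Since all testis sperm parts had the detergent wash, the wash term rests on cauda libraries alone. The 2 tissue tables were joined on shared rows. Fits within piRNA reads used the piRNA total as library size. Alternatives were RLE scaling, library totals alone, no filter, DESeq2 1.42.0, each replicate left out, a replicate block, no wash or chemistry term and, chosen after seeing the data, 1 row per piRNA locus. The fit was tested on simulated data. Python 3.11.15 made the tables and figures.

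The pairing check correlated deviations from group means on log2(CPM + 1) over rows of at least 10 CPM. Same-numbered libraries were called paired where every correlation was over 0.1: wash sets (0.31 to 0.90), RppH (0.32 to 0.64), AlkB (0.17 to 0.50) and epididymis PNK (0.51 to 0.65). Fusion and mock libraries were paired by the date codes their titles share (0.20). Named per comparison were the 4 largest rises and 4 largest falls among called loci averaging at least 20 CPM in the higher group, and the 3 with the highest mean level, besides the 8 leading loci of the series and the 3 most like the first; exceptions are marked. Members, lists and host roles were chosen with earlier results of these data known. The title of 1 cauda wash library says mid and its label high, and it was used as high.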

Additional observations from a re-analysis of the deposited data

Results flagged for a closer look

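Dixon's test at 95% was run on 153 sets of 4 to 10 libraries, for the genic share and the 8 leading loci, and marked 25, where chance marks about 1 in 20. The share of genic loci among piRNA reads was highest apart from its group in cauda epididymis AlkB replicate 4 (29.4%), testicular sperm replicate 1 (7.75%), testis PNK3minus replicate 3 (9.98%) and testis RppH replicate 3 (15.2%).

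Testis RppH replicate 3 was the lowest of its group for pi-Gm5878 (404 CPM), pi-Tmem194 (225 CPM), pi-Zfp382 (90.7 CPM) and pi-Wdfy3 (270.2 CPM) and the highest for pi-Lpp (483 CPM). Testis PNK3minus replicate 3 was the lowest for pi-Tmem194 (621 CPM) and pi-Eif2c2 (773 CPM) and the highest for pi-D10Wsu102e (901 CPM), pi-Wdfy3 (545 CPM) and pi-Lpp (1174 CPM). Testis PNK replicate 3 was the lowest for pi-Cbl (1216 CPM) and pi-Tmem194 (1196 CPM), testis AlkB replicate 2 for pi-Cbl (1556 CPM) and untreated testis replicate 3 for pi-Tmem194 (1945 CPM).

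In unwashed cauda sperm, replicate 5 was the highest for pi-Gm5878 (634 CPM) and pi-Tmem194 (270.2 CPM), and after the low wash replicate 5 was the highest for pi-Tmem194 (317 CPM) and pi-Eif2c2 (290.4 CPM). Whole cauda sperm replicate 4 of the hypotonic wash was the lowest for pi-Wdfy3 (74.7 CPM). In cauda epididymis, PNK replicate 3 was the highest for pi-Zfp382 (20.1 CPM) and AlkB replicate 3 for pi-Eif2c2 (28.1 CPM).

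The head to tail difference was lower in cauda than in testicular sperm, by an interaction test, for 23 genic loci, with log2 differences of -2.66 for pi-Cdc42ep3, -2.55 for pi-Tbl2, -2.48 for pi-Gm5878 and -2.43 for pi-Tmem194. The count was 0 to 27 with each library left out in turn and 4 with RLE scaling.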

How the results depend on the processing

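Counts of called genic loci kept within 1.5 times the reported count in all alternatives run for epididymis against testis, cauda against testicular sperm in the maturation series, age, low wash, PNK in testis, PNK in epididymis and 4 of the 5 fits within piRNA reads (all but cauda against caput sperm). With RLE scaling the calls were 26 for cauda heads against tails (43 as reported), 4 for the head to tail difference between cauda and testis (23), 50 for PNK in caput sperm (19) and 23 for RppH (6). Library totals alone gave 10 for epididymosomes (17), 14 for PNK in cauda sperm (48), 12 for PNK in caput sperm, 2 for AlkB (0) and 28 for RppH. For PNK3minus the total stayed within 1.5 times in every alternative run, but on library totals alone it was made of 41 higher and 22 lower (66 and 1). Without a filter on low counts the calls were 10 for epididymosomes, 13 for the head to tail difference, 5 and 1 for PNK in cauda and caput sperm, 2 for cauda against caput sperm (60), 24 of 55 for the same within piRNA reads, and 3 for fusion (0). DESeq2 gave 1 for testicular heads against tails (0), 29 for PNK in cauda sperm, 30 for cauda against caput sperm, 3 for AlkB and 44 for RppH. With 1 row per piRNA locus the head to tail difference had 4 calls. A replicate block gave 1 for testicular heads against tails, 1 and 2 for the mid and high washes (0 each) and 4 for fusion. It moved no other count over 1.5 times, AlkB and RppH in testis included. Other same-numbered libraries missed the correlation rule and were not called paired. In sperm these were cauda and caput PNK (correlations 0.095 to 0.52 and 0.09 to 0.20) and cauda against caput (-0.22 to 0.18). The others were the age source (-0.08 to 0.58), testis PNK (-0.14 to 0.53), PNK3minus (-0.19 to 0.44) and testicular sperm letters (-0.15 to 0.88). Titles of the PNK and PNK3minus libraries repeat the number of the untreated ones, so these may still share a source. Some titles of cauda heads, tails and whole sperm also share a number or letter. Their pairing was not checked, and they were fitted as separate libraries.

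Leaving out each replicate in turn gave 31 to 57 calls for whole cauda against testicular sperm (55), 0 to 27 for the head to tail difference, 10 to 23 for PNK in caput sperm, 24 to 57 for cauda against caput sperm, 2 to 51 for RppH and 0 to 12 for fusion. Of single loci named, 1 reversed: pi-Foxo3 in cauda against testicular sperm, -0.030 on library totals alone. The cause of these moves was not tested. Scaling moved the median of all rows by more than 0.5 on the log2 scale in epididymis against testis (0.54 with RLE), cauda against testicular sperm (-0.53 on totals), epididymosomes (0.66 on totals), cauda heads against tails (0.53 with RLE), the head to tail difference (0.5035 with RLE), cauda against caput sperm (-0.70 on totals) and PNK3minus in testis (-0.90 on totals). Depth limits caput sperm (156347 to 763899 reads) and the loci under a few CPM.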
